A study of Sus scrofa with 24 samples.

Results

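The reference genes followed here were ACTB, HPRT1, RPL4, PPIA and YWHAZ, genes of common use for scaling expression between samples, measured in vein samples from a pig model of the arteriovenous graft used for haemodialysis. Their probes were found by gene name or by the symbol in the description, in both annotation versions of the scanner files. The 5 genes, of 5733 with a symbol, had 16 of the 43603 different probes on the array: 7 of ACTB, 4 of RPL4, 2 of PPIA, 2 of YWHAZ and 1 of HPRT1. RPL4 carried only a numbered locus in the files, whose gene ID is that of RPL4. All 16 passed the filter on dim probes, 15 were well above background in all 24 samples and probe A_72_P269229 of PPIA in 23, and 0 were saturated in any sample.

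Total RNA came from 3 sites, each taken at day 5 or at day 14 of grafting, in 4 biological replicates for each of the 6 groups (24 samples). One site was the vein at the anastomosis with the graft, another the segment of vein downstream of it, and the control was external jugular vein. Breed, sex and age of the pigs are not given in the sources used here, nor is it stated whether sites or days of a number share an animal, and p-values here reflect how the replicates varied as labelled. Every control was labelled with Cy3 and every graft sample with Cy5, and in a comparison with the control site and dye cannot be told apart. Anastomosis against downstream vein, and day 14 against day 5, are free of a constant dye shift. The days lay on different slides in replicates 1, 2 and 3, and in different scans in replicates 1 and 2. Only in replicate 4 did a slide hold both days. Day therefore cannot be told apart from slide in replicates 1, 2 and 3, nor from scan in replicates 1 and 2. Both graft sites of a day were compared with the same 4 controls.

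ACTB encodes the cytoplasmic beta-actin of the cell cortex and of migrating cells, beside which vascular smooth muscle holds the contractile isoform ACTA2. As background, HPRT1 returns hypoxanthine and guanine to the nucleotide pool (purine salvage). RPL4 is a protein of the large ribosomal subunit, PPIA (cyclophilin A) is a peptidyl-prolyl isomerase and the receptor of cyclosporin, and YWHAZ is the zeta form of the 14-3-3 proteins, which bind phosphorylated partners. A gene serves as a reference where its level does not move with the condition, which in a healing vein means across changes in muscle, endothelial, inflammatory and dividing cells.

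The probes were 60 bases long and are shown here as stretches of 30 bases from the scanner files, 5′ to 3′, because probes of the same gene gave different results. The files' coordinates are not tied to a build used here, so no genome position is given. Probes A_72_P363318 and A_72_P402883 of ACTB share 44 bases and probes A_72_P027041 and A_72_P086189 share 24, so each pair reads nearly the same target. Capitals mark the bases of the stretch that lie in such a shared run. The first pair is shown over the same window (bases 1 to 30 and 9 to 38), in which they differ at 1 base.
A_72_P363318 (ACTB): tgagtggtCAGCCATCACAATCCCCTTTTT
A_72_P402883 (ACTB): tgagtgggCAGCCATCACAATCCCCTTTTT
A_72_P027041 (ACTB, bases 31 to 60): ggtctcTGTTTAATACCCTGTGCATATCTT
A_72_P086189 (ACTB): TGTTTAATACCCTGTGCATATCTTtgattt

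The brightest probe of each gene stands for it in the summaries. Of the probes whose values departed from the brightest of their gene, ACTB A_72_P385123 is not shown. The 5 brightest probes are given with their first 30 bases, followed by 2 that departed.
A_72_P177881 (HPRT1): gtacagacccataaattccagaaacctacc
A_72_P303894 (ACTB): aagagatgacaacagattttggttttctac
A_72_P402658 (RPL4): gcccaccacagaagaaaagaaggctgttgc
A_72_P366903 (PPIA): tgcttgtgttgccaaaaaatgacaggttcc
A_72_P164616 (YWHAZ): ttgggacaacataatgcatcttcactcacg
A_72_P196277 (RPL4): tcagaaacatccctggaattactctgctta
A_72_P270114 (YWHAZ): tcaagtattgagcaaaagacggaaggtgct

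Levels are normalised log2 intensities and a difference of 1 is a doubling. A probe was called where the adjusted p of limma's moderated test (Benjamini-Hochberg over 36141 probes) was under 0.05. At the anastomosis at day 5, 4 of the 16 probes were higher than in the jugular control and 0 were lower, against 20% of all probes tested called (9.75% higher and 10.3% lower). By the brightest probe these were 3 of the 5 genes, HPRT1, ACTB and RPL4. At day 14 it was 4 probes of ACTB and HPRT1, against 8.84% of all probes. In the downstream vein at day 5 it was 3 probes, of HPRT1, ACTB and RPL4, against 8.37%, and at day 14 it was 0, against 0.905%. Over the 16 probes the median difference from the control was 0.36 and 0.20 at the anastomosis and 0.18 and 0.11 downstream, at day 5 and day 14, beside medians of 0.005 to 0.008 over all probes.

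**Figure D1:**
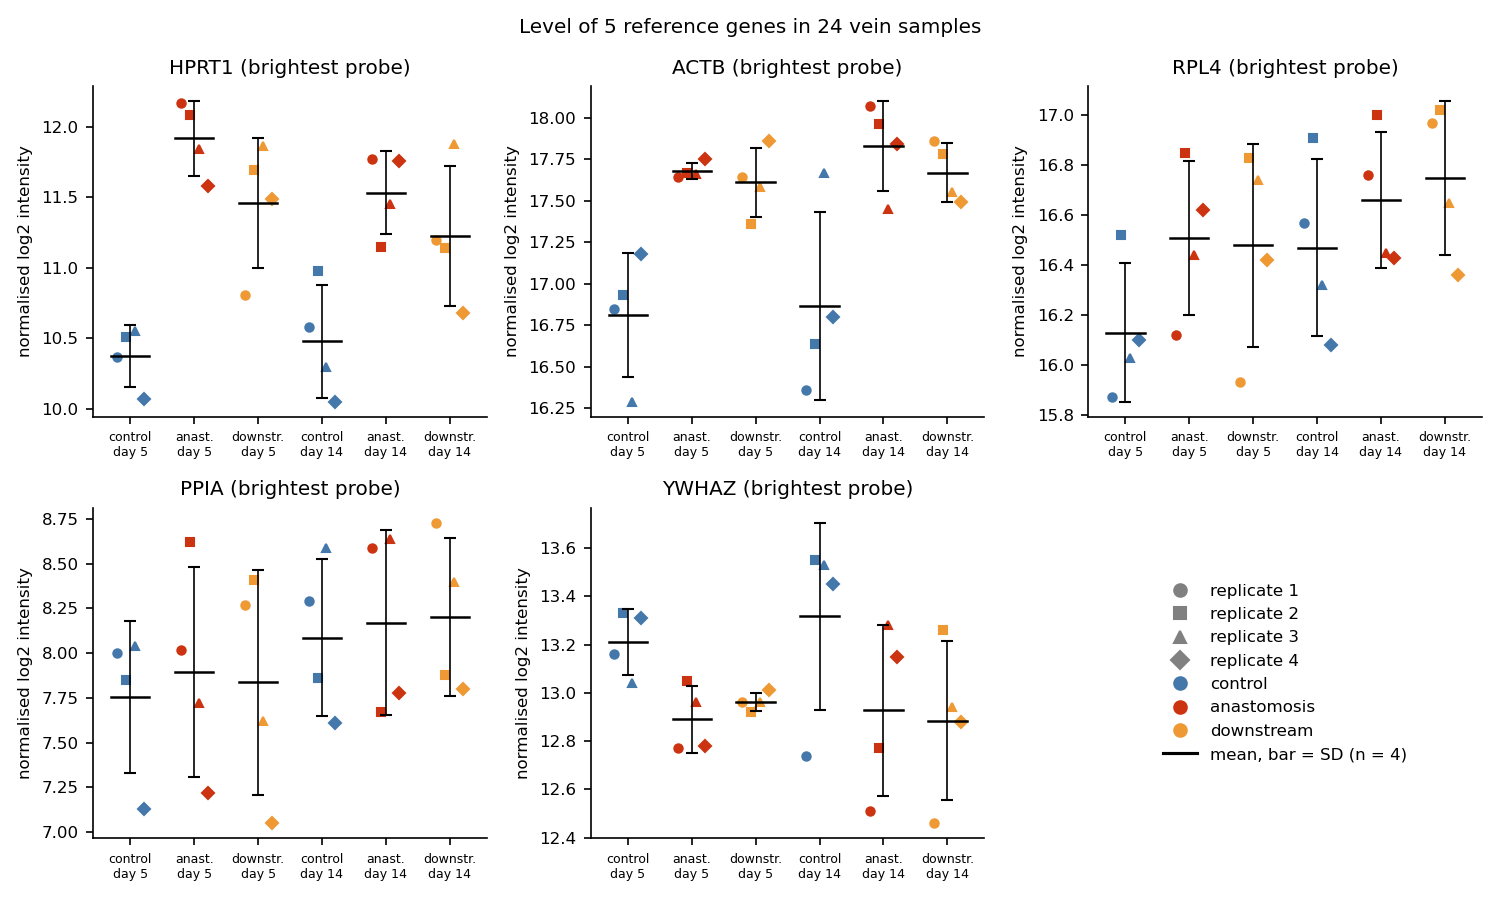
Normalised log2 intensity of the brightest probe of HPRT1, ACTB, RPL4, PPIA and YWHAZ in the 24 vein samples, by group. Points are samples, their shape the replicate number, and bars show mean and SD of 4. HPRT1 and ACTB sat lowest in the jugular controls (means 10.37 and 16.81 at day 5), YWHAZ sat highest there (13.21), and the PPIA groups overlapped throughout.

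HPRT1 was higher than in the jugular control at both graft sites at day 5 and at the anastomosis at day 14. Its level in the controls was 10.37, 10.51, 10.55 and 10.07 in replicates 1 to 4 at day 5. At the anastomosis it was 12.17, 12.08, 11.84 and 11.58, and downstream 10.81, 11.69, 11.86 and 11.49. All anastomosis and all downstream samples of day 5 lay above every control of that day.
At day 14 the controls were at 10.58, 10.98, 10.30 and 10.05 and the anastomosis at 11.77, 11.15, 11.45 and 11.76, again without overlap. Downstream at day 14 HPRT1 was at 11.20, 11.14, 11.88 and 10.68, the last of which lay among the controls.
The anastomosis was 1.54 ± 0.26 (log2 difference ± SE, n = 4 a group, 2.91-fold) above the control at day 5, with a 95% interval of 0.99 to 2.10 (limma adjusted p = 0.00141, higher in 4 of 4 pairs). At day 14 it was 1.05 above it (0.5 to 1.61, limma adjusted p = 0.0236, 4 of 4 pairs), a call lost in a fit of only the samples compared with the replicate block (0.149). The downstream vein was 1.09 higher at day 5 (0.54 to 1.64, limma adjusted p = 0.023), and at day 14 the difference of 0.75 (0.19 to 1.3, limma adjusted p = 0.187) did not pass.
The scanner software read the images of replicates 1 and 2 with a different quantification protocol from those of replicates 3 and 4, called image protocol here. No slide and no scan held samples of both of these sets of replicates. Within each image protocol, HPRT1 differed between anastomosis and control at day 5 by 1.68 in replicates 1 and 2 and by 1.40 in replicates 3 and 4, and at day 14 by 0.67 and 1.43. Downstream it was 0.81 and 1.37 at day 5 and 0.39 and 1.11 at day 14. The day 14 call at the anastomosis was lost without replicate 1 (1.01, limma adjusted p = 0.0708), replicate 3 (1.02, 0.063) or replicate 4 (0.83, 0.21), and the day 5 call downstream without replicate 2 (1.06, 0.0981), 3 (1.01, 0.129) or 4 (0.98, 0.169).
In order of its group means HPRT1 ran from the anastomosis at day 5 (11.92 ± 0.26, SD, n = 4) over the anastomosis at day 14 (11.53 ± 0.30), downstream at day 5 (11.46 ± 0.46) and day 14 (11.23 ± 0.49) to the controls at day 14 (10.48 ± 0.40) and day 5 (10.37 ± 0.22). Each group overlapped with the next in this order.

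Purine enzymes around HPRT1 moved in both directions. Of 23 purine salvage and synthesis genes listed, 11 were tested. At the anastomosis at day 5, 4 were higher and 1 was lower than the control, with a median of 0.27. PAICS, an enzyme of new purine synthesis, was higher by 1.15 (limma adjusted p = 0.00664), ADK (adenosine kinase) by 0.81 (0.00627) and ATIC, which closes the purine ring, by 0.68 (0.0118). ADSSL1, the adenylosuccinate synthase of muscle, fell by 1.77 on the log2 scale (limma adjusted p = 0.00154), and by 1.32 at day 14 (0.0172), when 0 of the 11 were higher. Downstream at day 5, PAICS was higher (0.95, 0.0355) and ADSSL1 lower (-1.17, 0.0315), and at day 14 none of the 11 passed limma's test. Of all probes, 20% and 8.84% were called at the anastomosis at day 5 and day 14, and 8.37% and 0.905% downstream.

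ACTB was higher at the graft sites by its brightest probe, A_72_P303894. The controls were at 16.85, 16.93, 16.29 and 17.18 at day 5 in replicates 1 to 4. The anastomosis was at 17.64, 17.67, 17.66 and 17.75, and the downstream vein at 17.64, 17.36, 17.58 and 17.86. Neither graft group overlapped with the controls of day 5, and the anastomosis samples lay within 0.11 of each other, with an SD of 0.049.
At day 14 the controls were at 16.36, 16.64, 17.67 and 16.80, and replicate 3 stood at the level of the graft samples. The anastomosis was at 18.07, 17.96, 17.45 and 17.84 and the downstream vein at 17.86, 17.78, 17.55 and 17.49.
At the anastomosis ACTB was higher than the control by 0.87 ± 0.23 (1.83-fold, 95% interval 0.37 to 1.37, limma adjusted p = 0.0175, 4 of 4 pairs) at day 5 and by 0.96 (0.46 to 1.46, 0.0229, 3 of 4 pairs) at day 14. Downstream it was 0.80 higher at day 5 (0.3 to 1.3, limma adjusted p = 0.0492, 4 of 4 pairs), and at day 14 the same size of 0.80 (0.3 to 1.3, 0.12) did not pass. Without the replicate block the day 5 call downstream was lost (limma adjusted p = 0.0831), and the day 14 call at the anastomosis was lost in a fit of only the samples compared with the block (0.235). With the mean of all 7 ACTB probes all 3 calls were lost, with differences of 0.49 (limma adjusted p = 0.207), 0.60 (0.152) and 0.22 (0.64).
Within each image protocol, ACTB differed between anastomosis and control by 0.77 in replicates 1 and 2 and 0.97 in replicates 3 and 4 at day 5, and by 1.51 and 0.41 at day 14. Downstream the values were 0.61 and 0.98 at day 5 and 1.32 and 0.29 at day 14. The call at the anastomosis was lost at day 5 without replicate 2 (0.91, limma adjusted p = 0.0611) or 4 (0.97, 0.0856), and at day 14 without replicate 1 (0.71, 0.147), 2 (0.84, 0.104) or 4 (0.94, 0.185). The call downstream at day 5 was lost without any of the 4, with limma adjusted p from 0.0733 to 0.221.
The group means of ACTB ran from the anastomosis at day 14 (17.83 ± 0.27, SD, n = 4) and day 5 (17.68 ± 0.049) over downstream at day 14 (17.67 ± 0.18) and day 5 (17.61 ± 0.20) to the controls at day 14 (16.87 ± 0.56) and day 5 (16.81 ± 0.37), and each group overlapped with the next.

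The 7 ACTB probes did not move alike. The overlapping probes A_72_P363318 and A_72_P402883 were 1.08 ± 0.32 (limma adjusted p = 0.0302) and 0.91 ± 0.32 (0.055) above the control at the anastomosis at day 5, and 1.27 (0.0273) and 1.14 (0.0378) at day 14. An unnamed probe of the array, A_72_P321033, which shares 42 and 34 bases with them, was higher by 0.98 (0.0403) and 1.22 (0.0289) in the same comparisons.
Probes A_72_P027041, A_72_P086189 and A_72_P063071, which come from the same clone sequence in the newer annotation, differed by 0.59, 0.57 and 0.34 at day 5 and by 0.50, 0.44 and 0.29 at day 14, and none passed (limma adjusted p from 0.0773 to 0.469).
Probe A_72_P385123 had the opposite sign. At day 5 its controls were at 14.70, 14.63, 15.51 and 14.78, the anastomosis at 13.67, 13.72, 14.51 and 13.87 and the downstream vein at 14.55, 13.04, 13.89 and 14.09. Every graft sample of day 5 lay below every control of that day on this probe. The difference was -0.96 ± 0.49 at the anastomosis (95% interval -2.01 to 0.10, limma adjusted p = 0.203, 0 of 4 pairs higher) and -1.01 downstream (-2.07 to 0.04, 0.218), so neither passed.
At day 14 its controls spread from 12.01 to 15.40, and the differences were -0.39 and -0.40. Within each image protocol at day 14 this ACTB probe differed between anastomosis and control by 0.68 in replicates 1 and 2 and by -1.46 (limma adjusted p = 0.0446) in replicates 3 and 4.

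Over the 24 samples, which share arrays in pairs, the level of A_72_P385123 had a correlation of -0.16 with the brightest ACTB probe, while the 2 most overlapping probes had 0.99 and A_72_P027041 with A_72_P086189 had 0.96. With the level of ACTA2, the smooth muscle actin, the correlation of A_72_P385123 was 0.60, and those of the other 6 ACTB probes ran from -0.29 to 0.10. ACTA2 itself was -2.20 below the control at the anastomosis at day 5 (limma adjusted p = 0.0276) and -2.36 downstream (0.0389). ACTA1, the skeletal muscle actin, was -2.03 below it at the anastomosis (0.0304), and its correlation with A_72_P385123 was 0.12. Whether A_72_P385123 also bound RNA of another actin was not tested.

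**Figure D2:**
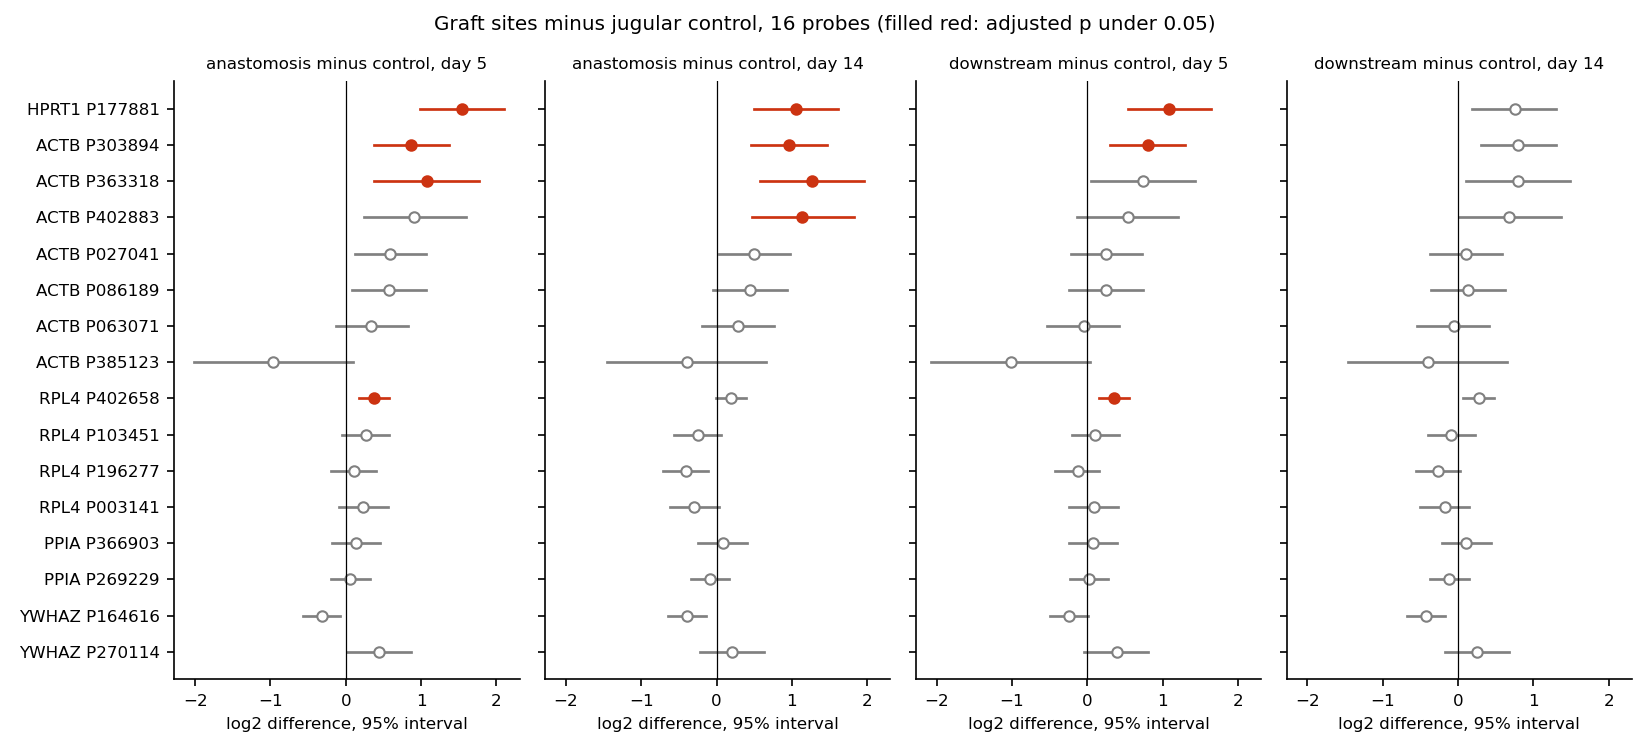
Log2 difference from the jugular control with its 95% interval for each of the 16 probes, at the anastomosis and downstream at day 5 and day 14. Filled red points passed the threshold. HPRT1 and the brightest ACTB probe lie right of 0 in all 4 panels, ACTB probe A_72_P385123 left of 0 in all 4, and both PPIA probes near 0.

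Of 24 actins and genes of actin turnover listed, 17 were tested, and at the anastomosis at day 5, 5 were higher and 2 lower than the control (median 0.49), at day 14 4 and 0 (median 0.59), and downstream 3 and 2 (0.23) and 2 and 0 (0.09). The shares of all probes called were 20%, 8.84%, 8.37% and 0.905% in the same order. TMSB10, a thymosin that binds monomeric actin, was higher by 1.78 (limma adjusted p = 5.43e-05) at the anastomosis at day 5 and by 1.89 (2.33e-05) downstream, and CAPZA1, a subunit of the actin capping protein, by 1.19 (0.0015) and 1.00 (0.0131). TMSB4X, the other common thymosin, was higher by 1.81 (0.00739) at the anastomosis and 1.66 (0.0377) downstream at day 14. The members that were lower at the anastomosis at day 5 were ACTA2 and ACTA1, and downstream ACTA2 and CFL2, the muscle form of cofilin (-1.27, 0.0477).

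RPL4 gave a small call by its brightest probe, A_72_P402658. Its controls at day 5 were at 15.87, 16.52, 16.03 and 16.10, the anastomosis at 16.12, 16.85, 16.44 and 16.62 and the downstream vein at 15.93, 16.83, 16.74 and 16.42. The groups overlapped, since replicate 2 was the highest and replicate 1 the lowest at each site.
Each graft sample was above the control of its own number. The difference was 0.38 ± 0.10 at the anastomosis (1.3-fold, 95% interval 0.18 to 0.58, limma adjusted p = 0.0124) and 0.35 downstream (0.15 to 0.55, 0.0366). Without the replicate block neither passed (limma adjusted p = 0.429 and 0.635). With the mean of all 4 RPL4 probes the differences were 0.25 (0.18) and 0.10 (0.648), and the downstream call was also lost in a fit of only the samples compared (0.122).
At day 14 the controls were at 16.57, 16.91, 16.32 and 16.08, the anastomosis at 16.76, 17.00, 16.45 and 16.43 and the downstream vein at 16.97, 17.02, 16.65 and 16.36. All graft samples again lay above their own control, by a mean of 0.19 at the anastomosis (-0.01 to 0.39, limma adjusted p = 0.232) and 0.28 downstream (0.07 to 0.48, 0.183), and neither passed.
Within each image protocol, RPL4 differed between anastomosis and control at day 5 by 0.29 and 0.47, and downstream by 0.19 and 0.52, in replicates 1 and 2 and in replicates 3 and 4. The call at the anastomosis was lost without replicate 2 (0.40, limma adjusted p = 0.052) or 4 (0.33, 0.116), and the call downstream without replicate 2 (0.37, 0.144), 3 (0.23, 0.292) or 4 (0.36, 0.185).
The group means of RPL4 ran from downstream at day 14 (16.75 ± 0.31, SD, n = 4) over the anastomosis at day 14 (16.66 ± 0.28) and day 5 (16.51 ± 0.30), downstream at day 5 (16.48 ± 0.41) and the control at day 14 (16.47 ± 0.35) to the control at day 5 (16.13 ± 0.28), and each overlapped with the next.

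The other 3 RPL4 probes gave no call. A_72_P103451, A_72_P196277 and A_72_P003141 differed between anastomosis and control by 0.27, 0.11 and 0.23 at day 5 and by -0.25, -0.41 and -0.30 at day 14, with the lowest limma adjusted p at 0.0763. The change of that difference between the days did not pass either (-0.52, -0.52 and -0.53, limma adjusted p from 0.477 to 0.511). Downstream the 3 probes differed by 0.10, -0.13 and 0.09 at day 5 and by -0.09, -0.27 and -0.18 at day 14. The 3 had correlations of 0.77 to 0.89 with each other over the 24 samples and of 0.14 to 0.20 with A_72_P402658.
Their samples of replicates 3 and 4 lay close together: A_72_P103451 ran from 15.51 to 15.82 there and from 15.10 to 16.52 in replicates 1 and 2. A_72_P196277 ran from 14.73 to 15.13 and from 14.28 to 15.83, respectively. At the anastomosis in replicate 1, A_72_P103451 was at 16.52 at day 5 and 15.10 at day 14, its highest and lowest value of all samples, while A_72_P402658 was at 16.12 and 16.76.

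Of 41 proteins of the large ribosomal subunit listed, 24 were tested. At the anastomosis 11 were higher than the control at day 5 and 8 at day 14, and 0 were lower. Downstream it was 11 higher and 1 lower at day 5 and 6 higher and 0 lower at day 14. Their median differences were 0.35, 0.27, 0.34 and 0.31, close to the difference of RPL4 by its brightest probe at day 5. The other RPL4 probes lay below these medians in each comparison. RPL27A was 0.79 higher at the anastomosis at day 5 (limma adjusted p = 0.000697), RPL10A 0.77 (0.000246) and RPL35 0.70 (0.00134). Of all probes, 20% and 8.84% were called at the anastomosis at day 5 and day 14, and 8.37% and 0.905% downstream.

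The PPIA probes were dim and gave no call. The raw intensity of A_72_P366903 ran from 84.7 to 733.3 over the 24 samples, and that of A_72_P269229 from 37.45 to 192.2, with local background up to 81, whereas the brightest ACTB probe ran from 33580 to 612600. Both are tied to a clone sequence in the newer annotation, and neither lists a RefSeq transcript of PPIA. Whether A_72_P366903, which stands for PPIA throughout, lies wholly within the PPIA transcript or partly in an intron was not checked, since no genome was used here. What is said of the level, stability, ratios and scaling of PPIA therefore holds for this probe, and may not hold for PPIA mRNA.
At day 5 A_72_P366903 was at 8, 7.85, 8.04 and 7.13 in the controls, at 8.02, 8.62, 7.72 and 7.22 at the anastomosis and at 8.27, 8.41, 7.62 and 7.05 downstream. Replicate 4 was the lowest at each site. At day 14 the controls were at 8.29, 7.86, 8.59 and 7.61, the anastomosis at 8.59, 7.67, 8.64 and 7.78 and the downstream vein at 8.73, 7.88, 8.40 and 7.80.
The groups overlapped in all comparisons. PPIA at the anastomosis differed from the control by 0.14 at day 5 (95% interval -0.18 to 0.46) and by 0.08 at day 14, and downstream by 0.08 and 0.11. Of its variance 76.2% lay between the 8 blocks of number and day and 13% between the groups. A_72_P269229 differed by 0.06, -0.09, 0.02 and -0.12.
The group means of PPIA ran from downstream (8.20 ± 0.44, SD, n = 4), anastomosis (8.17 ± 0.52) and control (8.09 ± 0.44) at day 14 to anastomosis (7.90 ± 0.59), downstream (7.84 ± 0.63) and control (7.75 ± 0.43) at day 5, and all overlapped.

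Other cyclophilins and FK506-binding proteins were called in both directions. Of 23 listed, 10 were tested, and at the anastomosis at day 5, 3 were higher and 1 lower (median -0.02). PPIH, a cyclophilin of the spliceosome, was 0.58 higher (limma adjusted p = 0.0118), FKBP1A 0.45 (0.0342) and PPIE 0.43 (0.0453), and FKBP5, a glucocorticoid-induced co-chaperone, was lower (-0.36, 0.0335). At the anastomosis at day 14 FKBP4 (-0.54, 0.0472) and FKBP5 (-0.38, 0.0454) were lower and 0 were higher. FKBP4 was the 1 member called in the downstream vein, lower at both days (-0.55, 0.0464, and -0.78, 0.0361). The shares of all probes called at day 5 and day 14 were 20% and 8.84% at the anastomosis and 8.37% and 0.905% downstream.

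YWHAZ was the gene whose brightest probe, A_72_P164616, was lower at the graft in every pair, without a call. At day 5 the controls were at 13.16, 13.33, 13.04 and 13.31, the anastomosis at 12.77, 13.05, 12.96 and 12.78 and the downstream vein at 12.96, 12.92, 12.96 and 13.01. The downstream samples lay below every control, and the anastomosis samples overlapped with them by 0.01.
At day 14 the controls were at 12.74, 13.55, 13.53 and 13.45, with replicate 1 low, the anastomosis at 12.51, 12.77, 13.28 and 13.15 and the downstream vein at 12.46, 13.26, 12.94 and 12.88. Replicate 1 was the lowest at each site of day 14.
The difference was -0.32 ± 0.12 at the anastomosis at day 5 (95% interval -0.57 to -0.07, limma adjusted p = 0.0722) and -0.39 at day 14 (-0.64 to -0.14, 0.0536), and -0.24 and -0.43 downstream (0.212 and 0.104). With median centring of each channel all 4 differences of YWHAZ had the other sign, 0.46, 0.27, 0.33 and 0.11, and with the mean of both probes the 2 at day 5 had it, 0.06 and 0.07. None of these passed. Without background correction the difference at the anastomosis at day 14 passed (-0.39, limma adjusted p = 0.0483), as did that at day 5 without replicate 2 (-0.33, 0.0486).
The group means of YWHAZ ran from the controls at day 14 (13.32 ± 0.39, SD, n = 4) and day 5 (13.21 ± 0.14) over downstream at day 5 (12.96 ± 0.039) and the anastomosis at day 14 (12.93 ± 0.35) and day 5 (12.89 ± 0.14) to downstream at day 14 (12.88 ± 0.33). The control and the downstream vein of day 5 were the only neighbours in this order that did not overlap.

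The second YWHAZ probe, A_72_P270114, parted the samples by replicate number. In replicates 1 and 2 its 12 samples ran from 9.26 to 10.83, and in replicates 3 and 4 its 12 samples ran from 11.50 to 12.34. The gap between replicates 1 and 2 and replicates 3 and 4 had a mean of 2.14, larger than that of 99.7% of the probes tested, whose median size was 0.239. For A_72_P164616 it was 0.15.
Within a number and day the sites of A_72_P270114 were close: at day 5 replicate 3 was at 11.94, 12.34 and 12.34 and replicate 2 at 9.47, 9.56 and 9.69 in control, anastomosis and downstream vein. Blocks took 94.7% of its variance and groups 1.9%. It was above the control by 0.44 and 0.20 at the anastomosis and by 0.39 and 0.25 downstream, at day 5 and day 14, and no difference passed (limma adjusted p from 0.143 to 0.596). The correlation of both YWHAZ probes was 0.28.
Replicates 1 and 2 also held fewer probes well above background. Replicate number, slide, scan and image protocol cannot be told apart in this split. The ACTB probes A_72_P363318, A_72_P402883 and A_72_P385123 also stood 0.92, 0.90 and 0.86 higher in replicates 3 and 4, and the brightest ACTB probe 0.03.

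**Figure D3:**
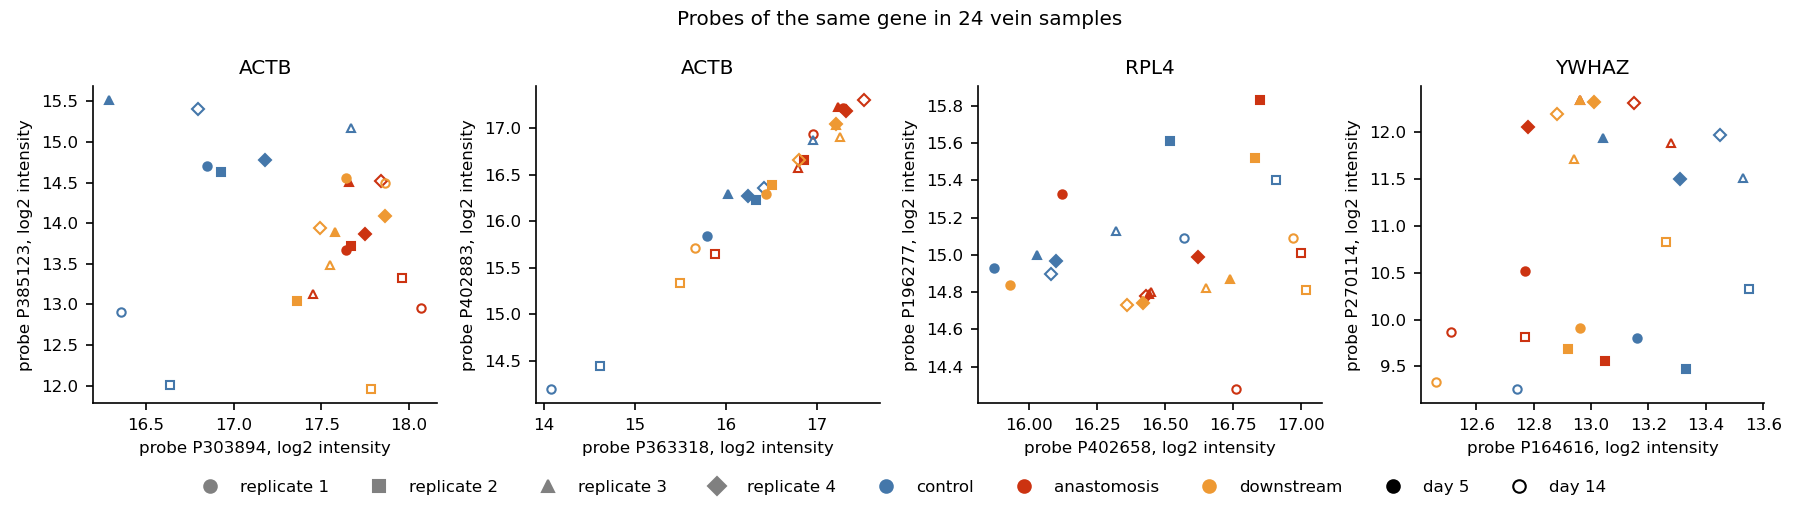
Normalised log2 intensity of a probe against another of the same gene in the 24 samples, with colour for the site, shape for the replicate and open symbols for day 14. ACTB A_72_P363318 and A_72_P402883 lie on a line (r = 0.99), ACTB A_72_P303894 and A_72_P385123 do not (r = -0.16), and the YWHAZ panel parts into replicates 1 and 2 below 10.83 and replicates 3 and 4 above 11.50.

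Of 6 other 14-3-3 proteins listed, 5 were tested. YWHAQ, the theta form, was lower at the anastomosis (-0.50, limma adjusted p = 0.0348) and downstream (-0.63, 0.0275) at day 5, and 0 passed at day 14. Of all probes, 20% were called at the anastomosis and 8.37% downstream at day 5, and 8.84% and 0.905% at day 14. The median of the 5 was -0.12 and 0.11 at the anastomosis and -0.20 and -0.05 downstream.

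Between the graft sites, and between the days, no probe of the 5 genes passed limma's test. Anastomosis minus downstream vein ran from -0.07 to 0.45 over the 16 probes at day 5 and from -0.17 to 0.48 at day 14. Over all probes 0% were called in both, although 3678 and 5125 had an unadjusted p under 0.05. The largest of the 5 genes was HPRT1 at day 5, at 0.45 (95% interval -0.10 to 1.01). For ACTB it was 0.07 (-0.43 to 0.57) at day 5 and for RPL4 0.03 (-0.18 to 0.23).
Day 14 minus day 5 in the control was between -1.03 (ACTB A_72_P385123) and 0.34 (RPL4 A_72_P402658, -0.16 to 0.84), with 0% of all probes called and 678 at an unadjusted p under 0.05. At the anastomosis HPRT1 differed by -0.38 (-0.83 to 0.06) between the days, against 0.00553% of probes called, and downstream by -0.24 (-0.94 to 0.46), against 0% called and 1633 at an unadjusted p under 0.05. The change of a site difference from day 5 to day 14 ran from -0.53 to 0.57 over the 16 probes for the anastomosis against the control. No probe of the array was called there, with 3146 at an unadjusted p under 0.05. Nor was one called for the other changes of a site difference (0% of probes, with 2750 and 1530 at an unadjusted p under 0.05). For HPRT1 the interval between the graft sites at day 5 reached 1.01. That is near its difference from the control downstream (1.09) and below that at the anastomosis (1.54). For ACTB and RPL4 the interval ended below their differences from the control at both sites.

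A ratio of 2 genes within a sample does not depend on a constant factor of that sample. It can still change with a normalisation that varies with intensity. Each gene in turn was taken as the scale of all probes, which gives each of the 10 pairs 2 fits with different neighbours, and the numbers here are of pairs called in both. The share of all probes called in these fits at the anastomosis at day 5 was 95.8% on HPRT1, 77.6% on ACTB, 55.7% on RPL4, 29.2% on YWHAZ and 12.7% on PPIA. At day 14 it was 86.7%, 83.5%, 9.48%, 42.4% and 4.13%, downstream at day 5 90%, 70.3%, 42%, 9.06% and 4.16% and at day 14 34.1%, 73.7%, 5.53%, 47.3% and 0.0858%. Of the 10 ratios 5 were called at the anastomosis at day 5, 4 at day 14, 4 downstream at day 5 and 3 at day 14. In either fit it was 6, 8, 6 and 5. With array-wide scaling 3, 2, 3 and 0 of the 5 genes were called. Where a large share of all probes is called, the adjustment asks less of each p, so these counts cannot be set against each other. At day 14 downstream the intervals of ACTB, HPRT1, RPL4 and YWHAZ lay off 0 with array-wide scaling too, though none passed. With 1 fit a pair, 0 of the ratios were called there without replicate 4 and 1 without the replicate block, against 3.
The largest in the first 3 of these comparisons was that of YWHAZ over HPRT1, and downstream at day 14 that of YWHAZ over ACTB. YWHAZ over HPRT1 at the anastomosis was -1.86 ± 0.31 from the control at day 5 (95% interval -2.5 to -1.22, limma adjusted p = 2.9e-05) and -1.44 at day 14 (0.00157), and downstream -1.33 (0.00179) and -1.18 (0.037). YWHAZ over ACTB differed by -1.19 (0.00156), -1.35 (0.000544), -1.04 (0.00608) and -1.24 (0.00451) in the same order.
In the fits with the later-named gene as the scale, the ratio of YWHAZ to HPRT1 kept its call in 3 of these comparisons whichever replicate was left out. Downstream at day 14 it lost it without replicate 3 (-0.85, limma adjusted p = 0.431) or 4 (-1.17, 0.109) and without the replicate block (0.0686). The ratio of ACTB to YWHAZ kept its call at the anastomosis at both days. It lost it downstream at day 5 without replicate 2 (1.11, 0.0573) or 4 (1.07, 0.164) or without the replicate block (1.04, 0.0923), and at day 14 without replicate 4 (1.23, 0.0649). The ratio of RPL4 to YWHAZ was called in all 4 comparisons with the block and in none without it (limma adjusted p from 0.19 to 0.503). With the block it lost each of these calls without replicate 4 (limma adjusted p from 0.0846 to 0.208). Calls were also lost under other scalings. In the deposited value table this was so at the anastomosis at day 5 (0.0755) and day 14 (0.121) and downstream at day 14 (0.141). With single-channel quantiles it was so downstream at day 5 (0.126). With median centring of each channel and no loess, ACTB over PPIA at the anastomosis at day 5 was 1.87, against 0.73. RPL4 over HPRT1 downstream at day 5 was then 0.03, against -0.74.
HPRT1 and ACTB were both higher at the graft, and their ratio differed by 0.67 at day 5 (-0.04 to 1.38) and 0.09 at day 14 (-0.62 to 0.80) at the anastomosis, and by 0.29 (-0.42 to 1.00) and -0.06 (-0.77 to 0.65) downstream. Between the graft sites 0 of the 10 ratios were called at either day.

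Scaling on 1 gene takes that gene's own difference from every probe alike, so the shift of all probes, and with it the balance of calls, follows by construction. The counts are given as a description of its size. The scale gene's own spread also enters every probe, so the lower counts on PPIA than with array-wide scaling are no measure of its stability. For the anastomosis at day 5, array-wide scaling gave 3525 probes higher and 3707 lower. Scaled on HPRT1 it gave 125 higher and 34494 lower. On ACTB it was 325 higher and 27733 lower, on RPL4 1455 and 18692 and on PPIA 1078 and 3521. On YWHAZ it was 9065 higher and 1489 lower.
In the downstream vein at day 14, where array-wide scaling gave 327 calls, ACTB gave 26650, YWHAZ 17087, HPRT1 12318, RPL4 1999 and PPIA 31. The median over all probes moved by the opposite of the reference's own difference, to -1.54 on HPRT1, -0.87 on ACTB, -0.37 on RPL4, -0.14 on PPIA and 0.32 on YWHAZ at the anastomosis at day 5.
Between the graft sites the choice mattered less: at day 5, 2 probes (0.00553%) were called on ACTB and 0 on each of the other 4. At day 14 it was 50 (0.138%) on RPL4, 42 (0.116%) on ACTB, 2 each on HPRT1 and YWHAZ and 0 on PPIA.

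**Figure D4:**
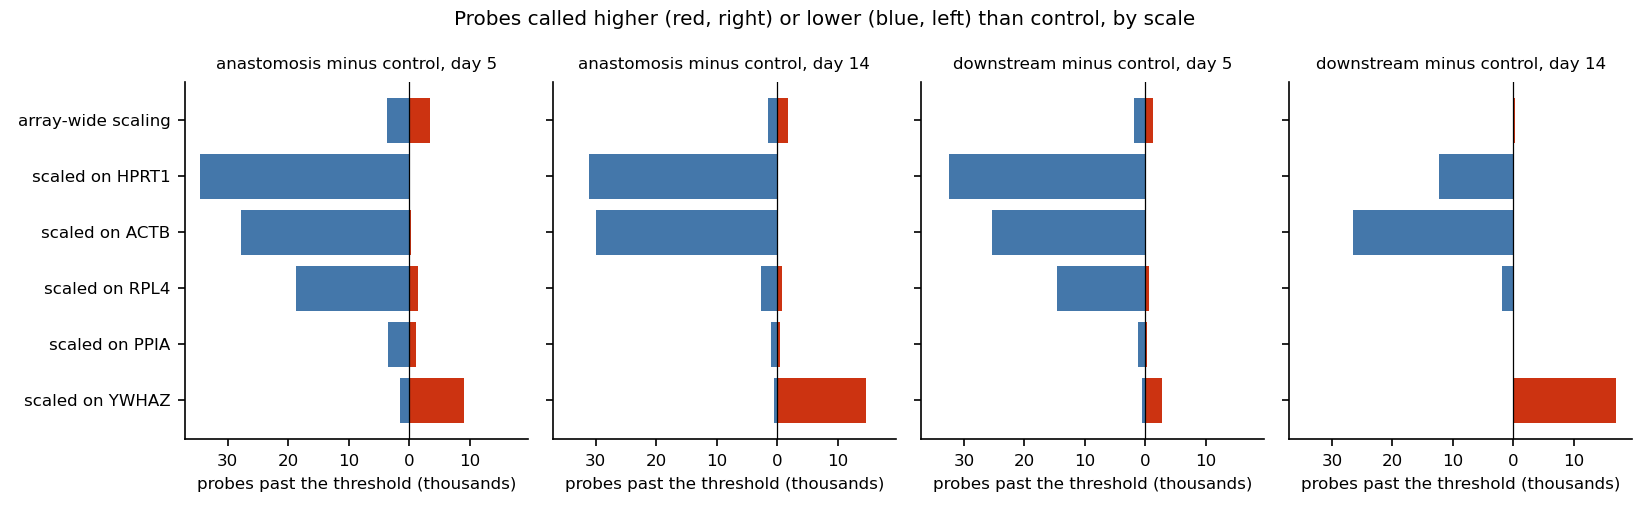
Number of probes called higher (red, right of 0) and lower (blue, left of 0) than the jugular control with array-wide scaling and with each reference gene as the scale. At the anastomosis at day 5, HPRT1 as the scale gave 34494 lower calls, and YWHAZ gave 9065 higher calls.

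Over the 24 samples the SD of the level was 0.29 for YWHAZ, 0.348 for RPL4, 0.485 for PPIA, 0.505 for ACTB and 0.66 for HPRT1, by the brightest probes. The median over all probes tested was 0.362, with 0.148 and 0.767 at the 10th and 90th percentile, so that 37.6% of probes varied less than YWHAZ and 84.6% less than HPRT1. Among the 22103 probes well above background in all 24 samples, with a median SD of 0.461, it was 15.4% for YWHAZ, 27.1% for RPL4 (47.8% of all probes tested), 54.8% for PPIA, 58% for ACTB and 77.8% for HPRT1. Groups took 75.4% of the variance of HPRT1 and 68.9% of that of ACTB, 35.1% of YWHAZ and 32.4% of RPL4. For RPL4 and YWHAZ the blocks took more, 60.9% and 48.1%.
Among the other probes of the genes the SD ran from 0.258 (PPIA A_72_P269229) to 1.16 (YWHAZ A_72_P270114), so the order of genes held for the brightest probes and not for all. A_72_P269229 was dim, with raw intensity from 37.45 to 192.2 beside local background up to 81. Whether this narrowed its SD was not tested. With YWHAZ A_72_P270114 in place of its brightest probe, YWHAZ would stand at the other end, with 97.9% of probes varying less.
By the mean SD of the log2 ratio to each of the other 4 genes (pairwise measure, lower where these ratios vary less), RPL4 was lowest at 0.532, then ACTB at 0.599, PPIA at 0.646, YWHAZ at 0.659 and HPRT1 at 0.679. The ratio of RPL4 to ACTB varied least (SD 0.496, range 1.97) and that of YWHAZ to HPRT1 most (SD 0.838, range 2.80). Computed within each of the 4 replicate numbers, the pairwise measure was 0.482 ± 0.073 for RPL4 and 0.678 ± 0.10 for HPRT1 (SD over 4 numbers of 6 samples each). The levels of HPRT1 and ACTB had a correlation of 0.60, that of HPRT1 and YWHAZ -0.48 and that of ACTB and YWHAZ -0.39. The pairwise measure also depended on the probe. Against the brightest probes of the other genes, the other RPL4 probes were at 0.549, 0.572 and 0.586 and PPIA A_72_P269229 at 0.546. The other ACTB probes ran from 0.661 to 1.17, and YWHAZ A_72_P270114 was at 1.32.

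With median centring of each channel and no loess, the anastomosis at day 5 was above the control by 2.21 for ACTB (limma adjusted p = 0.000123), 2.11 for HPRT1 (7.21e-05) and 1.59 for RPL4 (1.15e-05), against 0.87, 1.54 and 0.38 with loess and Aquantile. PPIA was at 0.34 and YWHAZ at 0.46. This centring holds the median over all probes near 0 by construction (0.003), and 8244 probes were called higher and 5581 lower.
In the authors' deposited value table HPRT1 differed by 1.59, ACTB by 1.02, RPL4 by 0.29, PPIA by 0.08 and YWHAZ by -0.17 in that comparison, and with the processed signals of Feature Extraction by 1.65, 0.79, 0.32, 0.30 and -0.26. HPRT1 and ACTB passed in both and RPL4 in neither.
By the brightest probes, YWHAZ had the lowest SD and RPL4 the lowest pairwise measure under all 11 settings of scaling or left-out replicate. The highest SD was that of HPRT1 except under median centring, where it was that of ACTB, at 1.05. The order of the others by the pairwise measure changed, and PPIA was last under median centring (0.77) and with no background correction (0.698).

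**Figure D5:**
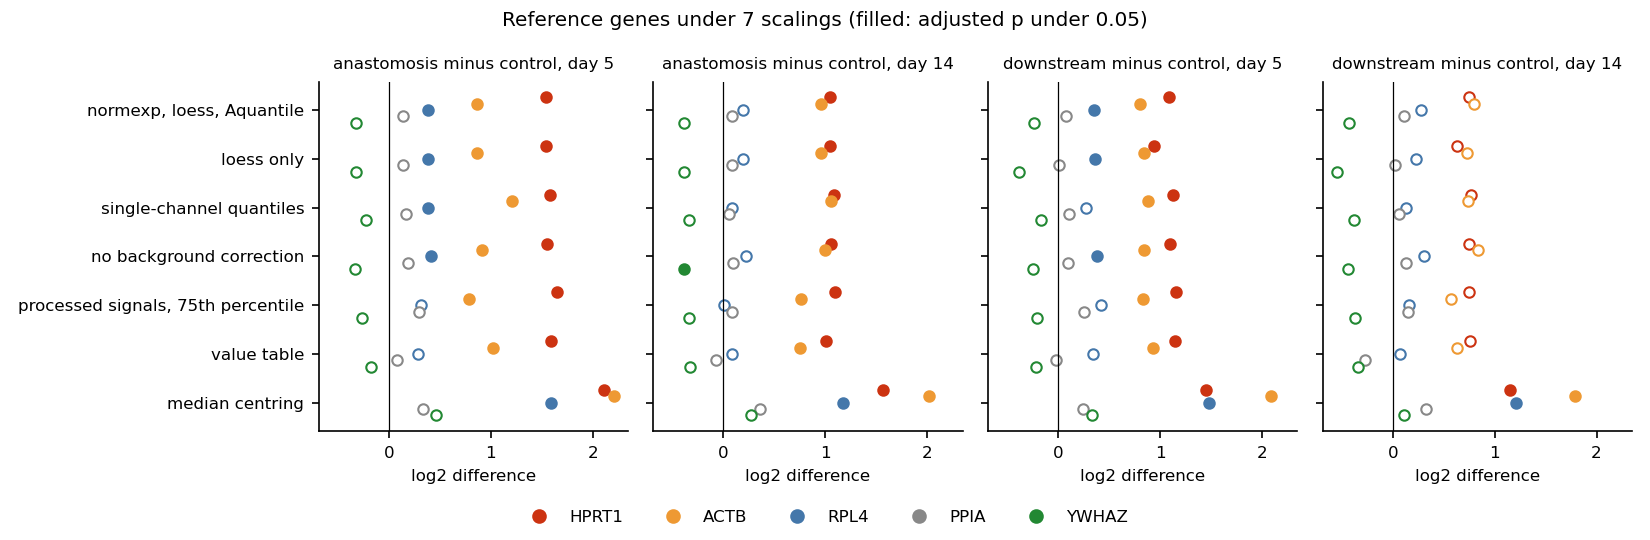
Log2 difference from the jugular control of the brightest probe of each gene under 7 scalings, at the anastomosis and downstream at day 5 and day 14, with filled points past the threshold. HPRT1 and ACTB lie right of 0 under every scaling, and YWHAZ lies left of 0 under 6 of them and right of 0 under median centring.

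Of 24 other genes in common use as references, 16 were tested. At the anastomosis at day 5, 7 were higher and 1 lower (median 0.34), at day 14 4 and 0 (0.13), and downstream 3 and 0 (0.17) and 2 and 0 (-0.01). The shares of all probes called were 20%, 8.84%, 8.37% and 0.905% in the same order. TUBB, a tubulin, was higher by 1.33 (limma adjusted p = 0.00389), GUSB, a lysosomal enzyme, by 1.02 (0.0217), and RPS18, of the small ribosomal subunit, by 0.88 (0.000407) at the anastomosis at day 5. RPS18 was called in all 4 comparisons with the control. Of genes not called in any, IPO8, an importin, differed by -0.04 to 0.13, RPLP0 by -0.14 to 0.10 and TFRC, the transferrin receptor, by 0.01 to 0.21.

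The named genes whose level was most like that of a reference gene, by Pearson correlation over the 24 samples among 4350 candidates, were the ribosomal proteins RPL35 (0.85) and RPS6 (0.837) for RPL4. For ACTB they were TMSB4X (0.869), FTH1 (0.846), the ferritin heavy chain, and NOS2 (0.814). For HPRT1 they were RTN4IP1 (0.941), ABRACL (0.931) and FAM96A (0.919), for PPIA FANCG (0.812), CTNS (0.787) and SLC52A3 (0.771), and for YWHAZ ATF4 (0.743), CNBP (0.742) and MGST3 (0.719). The samples share arrays, sites and days.

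Several cell markers differed between the sites at day 5, and fewer at day 14. Beside their counts, 20% and 8.84% of all probes were called at the anastomosis at day 5 and day 14, and 8.37% and 0.905% downstream. Of 12 contractile smooth muscle markers 10 were tested, all above background in every sample, and 8 were lower at the anastomosis at day 5 and 4 downstream, with medians of -2.17 and -2. Their mean level at day 5 ran from 14.91 to 15.69 in the controls and from 12.60 to 14.06 at the anastomosis. At day 14 none of the 10 passed limma's test at either graft site (medians -1.32 and -1.17), and the controls ran from 12.21 to 15.61, so that the lowest control stood below every anastomosis sample (12.90 to 13.37). Of 15 cell cycle genes 11 were tested, and 10 were higher at the anastomosis (median 2.81) and 7 downstream (1.92) at day 5, with mean levels of 8.74 to 9.13 in the controls and 11.12 to 11.94 at the anastomosis. At day 14 none of the 11 passed limma's test at either site, and the controls ran from 8.70 to 10.19.
Of the 6 endothelial markers tested (9 listed) 3 were higher at each graft site at day 5, and 2 at the anastomosis and 1 downstream at day 14. At day 5 their mean level ran from 11.54 to 11.81 in the controls and from 12.35 to 12.60 at the anastomosis. Of the 7 monocyte and macrophage markers tested (11 listed) 3 were higher at the anastomosis and 2 downstream at day 5, and 2 and 0 at day 14, with day 5 mean levels of 11.37 to 11.93 and 12.08 to 13.14 in the controls and at the anastomosis. Of the 8 T, NK, B and plasma cell markers tested (10 listed) 1 was higher at the anastomosis at day 5 and 2 at day 14, and 0 downstream.
Of the 7 skeletal muscle markers tested (8 listed) 2 were lower at the anastomosis at day 5 and 1 at day 14, and 0 of the 7 adipocyte markers (8 listed) were called at either day, though their mean level ran from 8.34 to 14.61 in the controls of day 14. No marker tested was below background in all samples of the control. These bulk samples cannot tell a change in the share of cell types from a change per cell, and the part of cell makeup in the differences of the 5 genes was not tested.

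Between 56.9% and 80.2% of probes were well above background in a sample, and the control of day 14, replicate 1, was the lowest. No library read depth applies to arrays, and the number of arrays limits the precision.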

How the data were processed

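Total RNA of 24 pig vein samples was hybridised to 16 Agilent 2-colour arrays, scanned on 7 slides in 5 scans and, per the file headers, quantified with version 10.5.1.1 of Feature Extraction. The deposited scanner files hold linear intensity values of each spot, namely mean foreground and median background per channel and the software's processed signals. The authors' deposited value table holds log2 values, whose making no source used here describes. The green channel of the 8 arrays with a downstream sample has no sample in the labels and was used in normalisation only.

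Intensities were corrected by normexp (offset 50), normalised by loess within arrays and Aquantile between arrays, and averaged per probe in limma 3.58.1 (R 4.3.3). Probes well above background in at least 4 of 24 samples (36141) were tested with lmFit and eBayes, on group and block, a block being the 3 samples of 1 number and day (8 blocks). The contrast of days used the 8 samples of each site and no block. There were 12 comparisons, two-sided, with Benjamini-Hochberg adjustment over all probes, a threshold of 0.05 and 95% intervals. Control and anastomosis of a number and day share an array, and pairs of samples with a common number and day had correlated deviations from their group means (0.18 to 0.81, 24 of 24 pairs over 0.1). The fits were tested on simulated data.

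A symbol was found for 8514 of 43603 probes. The members and gene lists were chosen with earlier results of these data known. All member probes are named, the brightest stands for a gene, and from each list up to 4 called members with the largest difference are named, with further members named to give a range. Alternatives were 6 scalings or sources of values, filters, the mean over a gene's probes, the block, fewer samples in the fit and left-out replicates. Leaving out replicates for the ratios was added after seeing the data. Some items are not reported here.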

Additional observations from a re-analysis of the deposited data

Results flagged for a closer look

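In 8 of the 96 groups of 4 samples (16 probes in 6 groups), the highest or lowest sample stood apart from the other 3 by Dixon's criterion at the 95% level, which chance meets in about 1 in 20 groups. For ACTB, probe A_72_P303894 had no such group. Probe A_72_P086189 was at 16.76 in replicate 1 downstream at day 5 (others 16.20 to 16.24). Probe A_72_P385123 was at 15.51 in replicate 3 of the control at day 5 (others 14.63 to 14.78). Probe A_72_P402883 was at 16.66 in replicate 2 at the anastomosis at day 5 (others 17.19 to 17.23) and at 15.84 in replicate 1 of the control at day 5 (others 16.23 to 16.29).

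For RPL4, probe A_72_P003141 was at 14.00 in replicate 1 at the anastomosis at day 14 (others 14.77 to 14.85). Probe A_72_P196277 was high in replicate 2 at day 5, at 15.61 in the control (others 14.93 to 15.00) and at 15.52 downstream (others 14.74 to 14.87). For YWHAZ, probe A_72_P164616 was at 12.74 in replicate 1 of the control at day 14 (others 13.45 to 13.55). HPRT1 and PPIA had no such group. No change of a site difference between the days was called for any of the 16 probes.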

How the results depend on the processing

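Differences of the 5 genes kept their sign and their side of the threshold in 948 alternative fits, fell below the threshold in 50, passed it in 7 and were reversed in 0. A change of sign between values that were both uncalled counts among the 948, and there were 118. Of the ratio fits 1 was reversed: RPL4 over HPRT1, downstream minus control at day 5, was at 0.03 (adjusted p = 0.913) with median centring. Another 40 fell below and 18 passed the threshold, 481 kept their side, and 38 uncalled ratios changed sign. With 1 fit a pair, leaving out a replicate (chosen after seeing the data) gave 4 to 7 called ratios at the anastomosis at day 5 (5 with all replicates), 2 to 7 at day 14 (6), 1 to 5 downstream at day 5 (5) and 0 to 3 at day 14 (3).

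Of the 5 genes, 3 were called at the anastomosis at day 5, and the number was 1 with the mean of all probes of a gene, 0 in replicates 1 and 2 alone and 1 in replicates 3 and 4 alone. At day 14 it was 2, and 1 with the mean of all probes, 0 in a fit of only the samples compared with the replicate block, 0 in replicates 1 and 2 and 1 in replicates 3 and 4. Downstream at day 5 it was 3, and 1 with the mean of all probes, 1 with no replicate block, 0 in replicates 1 and 2 and 1 in replicates 3 and 4. Downstream at day 14 it was 0, and 3 with median centring. Leaving out a replicate gave 1 to 3, 0 to 1, 0 to 2 and 0 to 1 in these 4 comparisons. In the other 8 comparisons the number was 0 under every alternative run.

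With no replicate block, ACTB and HPRT1 at the anastomosis and HPRT1 downstream at day 5 kept their calls. Fits with 2 replicates a group have few degrees of freedom: in replicates 1 and 2, 2 probes of the array were called at the anastomosis at day 5. Over all alternatives the number called on the array ran from 2 to 13825 at the anastomosis at day 5, from 1 to 16236 at day 14, and from 0 to 8216 and 0 to 8402 downstream. The share of higher calls moved from 48.7% to 59.6% with median centring at the anastomosis at day 5. Downstream at day 5 it moved from 40.6% to 22.4% with loess only, 58.9% with median centring and 52.7% with the processed signals, and at day 14 from 70.3% to 34.2%, 44.7% and, in the value table, 51.1%. The cause was not tested. Signal over background limits the 2 PPIA probes most.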
